A study of Homo sapiens with 9 samples.

Results

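The NRF2 pathway and its main antioxidant targets were followed through 9 RNA-seq libraries of HEK293T cells as 10 genes chosen by symbol, NFE2L2, KEAP1, HMOX1, SLC7A11, NQO1, GCLM, GCLC, TXNRD1, SRXN1 and GSR. All 10 are among the 17083 genes of the deposited table, and all 10 passed the filter on low counts that left 12924 genes for testing. HEK293T, a transformed line from human embryonic kidney that expresses the large T antigen of SV40, is labelled as epithelial and wild type. A first group of 3 libraries came from cells overexpressing FLAG-tagged PLK2, a polo-like kinase. The next 3 came from cells overexpressing FLAG-tagged PLK2(D223N), which carries a substitution in the kinase domain, and the last 3 from cells given the FLAG vector without PLK2 (Vector). Replicates are described as biological. No source used here gives the dose, the time after delivery of the plasmids or the kinase activity.

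NRF2, the protein made from NFE2L2, is the transcription factor that turns on the cell's antioxidant and detoxifying genes. In unstressed cells KEAP1 holds NRF2 and hands it to a ubiquitin ligase, so that it is degraded almost as soon as it is made, and oxidants or electrophiles that modify KEAP1 let NRF2 build up, enter the nucleus and bind antioxidant response elements together with small MAF proteins. Much of this control acts on the NRF2 protein, which RNA levels do not show, and the RNA of the target genes is the usual readout of the pathway.

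The antioxidant response element was searched for in promoter windows from RefSeq (GRCh38.p14), each running from 250 bases before a gene's start to 50 bases after it, as the core TGACNNNGC on either strand. Windows were on hand for 7 of the 10 genes, and KEAP1, GCLM and TXNRD1 held a match, while HMOX1, SLC7A11 and GSR were not searched here. NFE2L2, NQO1, GCLC and SRXN1 held no match, which says only that these letters are not in this window. Counted as windows, since some genes have several starts, 4 of the 10 member windows held a match, beside 13.3% of all 35116 RefSeq windows and 14.0% of those of genes in the deposited table. No test was made of that difference, and the match is a short run of letters and not a measured binding site. The matches are shown because they carry the core letters of the element that NRF2 binds. Each is given with 10 bases on either side, read 5′ to 3′ along the strand that carries the motif, with the motif in capitals.

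GCLM chr1:93909446-93909474, strand opposite to the gene: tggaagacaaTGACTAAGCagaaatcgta

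KEAP1 chr19:10502807-10502835, strand of the gene: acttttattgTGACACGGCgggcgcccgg

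KEAP1 chr19:10502784-10502812, strand opposite to the gene: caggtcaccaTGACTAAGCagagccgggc

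TXNRD1 chr12:104215670-104215698, strand of the gene: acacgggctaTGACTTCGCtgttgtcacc

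TXNRD1 chr12:104215761-104215789, strand opposite to the gene: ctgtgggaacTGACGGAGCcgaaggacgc

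TXNRD1 chr12:104286920-104286948, strand opposite to the gene: agagtcagaaTGACAAAGCagaaatccac

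The GCLM motif and the second KEAP1 motif are the same 9 letters, and the third TXNRD1 motif lies in the window of a second start of that gene. Their coordinates are those of RefSeq, and the gene coordinates given further on are those of GENCODE release 29 on GRCh38.

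Totals lay between 14288165 and 16510186 estimated counts per library. PLK2 RNA followed the labels, at 23744 ± 2384 CPM in PLK2 libraries, 12358 ± 1650.1 CPM in PLK2(D223N) libraries and 3.42 ± 0.64 CPM in Vector libraries (SD, n = 3 each), so PLK2 RNA was 1.92-fold higher with PLK2 than with PLK2(D223N). CPM values are library-scaled counts (TMM) and are not divided by gene length. Vector replicate 1 stood apart from its group. The chi-square per gene between it and the other Vector libraries was 17.2 and 10.5, against 2.64 between Vector replicates 2 and 3 and 1.61 to 2.74 within the PLK2 and PLK2(D223N) groups. Of the epithelial markers, KRT8, KRT18, EPCAM and CDH1 were detected in all 3 groups, with a summed level of 66.4 to 67.2 CPM in PLK2, 65.4 to 68.3 CPM in PLK2(D223N) and 65.9 to 76.6 CPM in Vector libraries, and KRT19 was not analysed here. KRT18 and KRT8 made up most of the epithelial sum, at a mean of 43.0 and 19.5 CPM over the 9 libraries. EPCAM was at 1.89 and CDH1 at 3.53 CPM. Summed markers of myeloid cells were at 2.98 to 3.24, 1.42 to 2.62 and 2.97 to 3.54 CPM in the same groups, those of fibroblasts at 8.99 to 11.2, 9.87 to 11.2 and 9.75 to 9.87 CPM, and the neuronal genes known from HEK293 cells at 9.85 to 10.2, 9.19 to 10.1 and 9.26 to 10.5 CPM. COL1A1 made up most of the fibroblast sum, while COL1A2 had no counts in PLK2 or PLK2(D223N) libraries and 1 in Vector libraries.

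All 10 genes were expressed in every library. Per gene length, as TPM, TXNRD1 had the highest level of the 10 and NQO1 the lowest. TXNRD1, the cytosolic thioredoxin reductase, averaged 188 ± 2.1 TPM in PLK2, 171 ± 3.6 TPM in PLK2(D223N) and 179.7 ± 6.2 TPM in Vector libraries (SD, n = 3 each). NQO1, a quinone reductase often used as a sensitive readout of NRF2, was at 9.16 ± 0.21, 8.95 ± 0.52 and 9.34 ± 0.48 TPM in the same groups. Between them the order of the mean TPM was HMOX1, GSR, NFE2L2, KEAP1, GCLC, SRXN1, GCLM and SLC7A11, and it was the same in all 3 groups. Most neighbours in this order did not overlap in any library of a group. The exceptions were GSR and NFE2L2 in PLK2 libraries, and NFE2L2 and KEAP1 as well as SLC7A11 and NQO1 in Vector libraries.

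**Figure D1:**
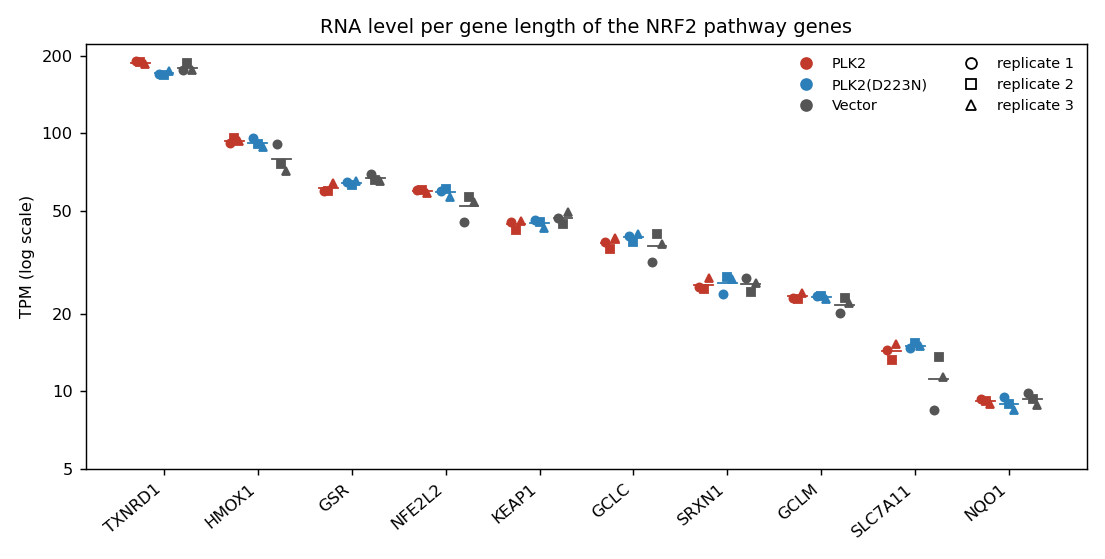
Each point is 1 library and each bar the mean of 3, as TPM on a log axis, for the 10 genes ordered by level, with PLK2, PLK2(D223N) and Vector side by side. TXNRD1 averaged 188, 171 and 179.7 TPM in the 3 groups and NQO1 9.16, 8.95 and 9.34 TPM, and the widest scatter is that of SLC7A11 in Vector libraries.

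The first comparison asks what the intact kinase does to the pathway. None of the 10 genes passed the test between PLK2 and Vector libraries (edgeR, Benjamini-Hochberg adjusted p below 0.05, called genes), where 66 of 12924 genes, or 0.511%, were called. At an unadjusted p below 0.05 there were 4 of the 10, NFE2L2, HMOX1 and SLC7A11 above 0 and GSR below, against 16.4% of all tested genes. The log2 fold changes of the 10 ran from -0.14 for GSR to 0.36 for SLC7A11, with a median of 0.06 beside -0.00 for all tested genes. Of the 10, 6 lay above 0, beside 6322 of all 12924 tested genes. For 4 of the 10 every PLK2 library lay outside the range of the Vector libraries, with NFE2L2, SLC7A11 and GCLM higher and GSR lower in PLK2, against 20.1% of all tested genes. In bulk RNA, fewer cells carrying a transcript and less of it per cell cannot be told apart.

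The second comparison asks the same of the kinase-domain mutant. Between PLK2(D223N) and Vector libraries none of the 10 was called, and 3 of all tested genes were, or 0.0232%. SLC7A11 above 0 and TXNRD1 below 0 were the 2 members at an unadjusted p below 0.05, against 8.53% of all tested genes. The log2 fold changes ran from -0.13 for TXNRD1 to 0.38 for SLC7A11, with a median of -0.00 beside 0.01 for all tested genes. Of the 10, 5 lay above 0, beside 6808 of all 12924 tested genes. Libraries did not overlap for 3 of the 10, SLC7A11 being higher and TXNRD1 and GSR lower in PLK2(D223N), against 13.9% of all tested genes. This comparison and the first share the 3 Vector libraries.

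The direct comparison of PLK2 with PLK2(D223N) libraries asks how the 2 constructs differ. They differ in the kinase domain and in PLK2 RNA, 1.92-fold higher with PLK2, and the comparison cannot tell these apart. It called none of the 10 genes, and 21 of all tested genes, or 0.162%. TXNRD1 was the 1 member at an unadjusted p below 0.05, against 6.04% of all tested genes. The log2 fold changes ran from -0.02 to 0.19, the highest being that of TXNRD1, with a median of 0.05 beside -0.00 for all tested genes. Of the 10, 7 lay above 0, beside 6190 of all 12924 tested genes. Libraries of the 2 constructs did not overlap for GCLM and TXNRD1, both higher in PLK2, against 20.5% of all tested genes. Over the 3 comparisons, the 95% intervals of the fold change of the 10 genes lay between 0.805 and 1.51, each interval being that of a single gene. The intervals rest on a spread shared by the 3 groups. The median SD of log2 CPM of the 10 genes was 0.118 in Vector libraries, against 0.043 in PLK2 and 0.044 in PLK2(D223N) libraries. Intervals against Vector can therefore be too narrow, and those between the constructs too wide.

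**Figure D2:**
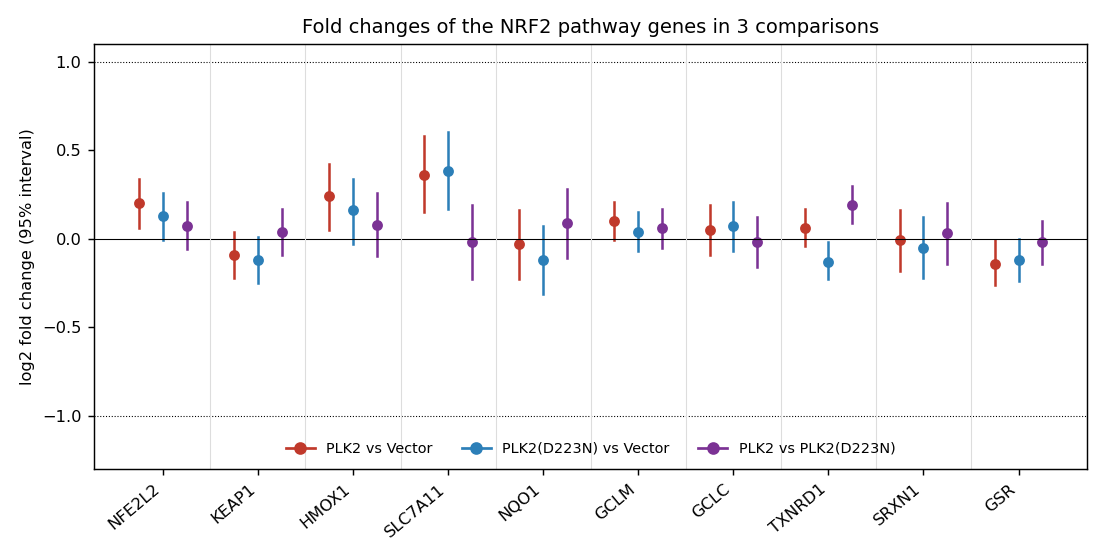
Points are log2 fold changes from edgeR and lines their 95% intervals, for each of the 10 genes in PLK2 vs Vector, PLK2(D223N) vs Vector and PLK2 vs PLK2(D223N). Dotted lines mark a doubling and a halving, and no interval reaches either line, the highest bound being 0.60 for SLC7A11 in PLK2(D223N) vs Vector. The intervals use a spread shared by all groups, though Vector libraries spread more, so those against Vector can be too narrow.

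NFE2L2 (NCBI gene 4780, chromosome 2, 177227595 to 177392697, minus strand) encodes NRF2 itself. It was at 74.1, 74.5 and 70.3 CPM in PLK2 libraries, at 69.5, 71.4 and 67.4 CPM in PLK2(D223N) libraries and at 57.4, 67.5 and 65.9 CPM in Vector libraries. All 3 PLK2 libraries were above all 3 Vector libraries, PLK2(D223N) libraries overlapped both of the other groups, and Vector replicate 1 was the lowest of the 9. For NFE2L2 the log2 fold change was 0.20 (SE 0.06, adjusted p = 0.173) in PLK2 vs Vector, 0.13 (SE 0.06, adjusted p = 0.574) in PLK2(D223N) vs Vector and 0.07 (SE 0.06, adjusted p = 0.942) in PLK2 vs PLK2(D223N). Without Vector replicate 2 the PLK2 vs Vector value was 0.24 and was called (adjusted p = 0.0219), where 12.7% of all tested genes were called. Adjusted p in PLK2 vs Vector ran from 0.0219 to 0.468 over 18 alternatives. Without Vector replicate 1 the log2 fold change was 0.13 in PLK2 vs Vector and 0.06 in PLK2(D223N) vs Vector, neither called. Over the 18 alternatives these differences ran from 0.13 to 0.24 and from 0.06 to 0.18. An annotated transcript on the same strand, AC019080.1, shares 1054 exon bases with NFE2L2, and the authors' handling of strand and of such overlaps was not stated in any source used here.

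KEAP1 (NCBI gene 9817, chromosome 19, 10486120 to 10503741, minus strand), the sensor that marks NRF2 for degradation, was at 57.2, 54.1 and 56.4 CPM in PLK2 libraries, at 55.8, 55.0 and 52.5 CPM in PLK2(D223N) libraries and at 61.6, 54.6 and 61.6 CPM in Vector libraries. Vector replicate 2 lay among the libraries with a construct and the other 2 Vector libraries above them. Its log2 fold change was -0.09 (95% interval -0.22 to 0.04) in PLK2 vs Vector and -0.12 (-0.25 to 0.01) in PLK2(D223N) vs Vector, with adjusted p = 0.474 and 0.574. Without Vector replicate 2 these became -0.14 and -0.18, and without Vector replicate 1 they were -0.06 and -0.10, as they were without Vector replicate 3, with no call in any of 18 alternatives.

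SLC7A11 (NCBI gene 23657, chromosome 4, 138164097 to 138242349, minus strand) encodes xCT, the subunit of the cystine and glutamate exchanger that brings in the cystine from which glutathione is made. It had the largest differences from Vector of the 10 genes. Its level was 76.9, 71.5 and 78.7 CPM in PLK2 libraries, 74.4, 77.9 and 77.4 CPM in PLK2(D223N) libraries and 47.0, 70.2 and 59.7 CPM in Vector libraries. All 6 libraries with a construct were above all 3 Vector libraries, and the Vector libraries spread far more among themselves than the others did. The mean was 75.7 ± 3.8 CPM with PLK2, 76.6 ± 1.9 CPM with PLK2(D223N) and 58.9 ± 12 CPM with Vector (SD, n = 3 each). The log2 fold change was 0.36 (SE 0.10, 95% interval 0.15 to 0.58, adjusted p = 0.121) in PLK2 vs Vector and 0.38 (SE 0.10, 0.17 to 0.60, adjusted p = 0.530) in PLK2(D223N) vs Vector. Between PLK2 and PLK2(D223N) libraries it was -0.02 (SE 0.10, -0.23 to 0.19, adjusted p = 0.991).

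The call of SLC7A11 changed with the libraries kept and with the method. Without Vector replicate 1 it was called in PLK2 vs Vector at 0.23 (adjusted p = 0.0151), where 2.79% of all tested genes were called, and without Vector replicate 2 at 0.51 (adjusted p = 0.000635), where 12.7% were. The same held in PLK2(D223N) vs Vector, at 0.24 without Vector replicate 1 (adjusted p = 0.0464, 0.161% of all genes called) and 0.52 without Vector replicate 2 (adjusted p = 0.00375, 2.66%). Without Vector replicate 3 neither was called, at 0.38 and 0.39. With all libraries kept, PLK2 vs Vector was called by the DESeq2 Wald test at 0.36 (adjusted p = 0.0496) and, with trends of GC content and length removed, at 0.20 (adjusted p = 0.0297). In those fits 143 and 379 of all tested genes were called. Adjusted p ran from 0.000635 to 0.349 over 18 alternatives in PLK2 vs Vector and from 0.00375 to 0.830 in PLK2(D223N) vs Vector, and all of these values of SLC7A11 lay above 0. The annotated antisense transcript SLC7A11-AS1 shares 865 exon bases with it, and without a known strand setting reads of the pair cannot be told apart.

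GCLC and GCLM encode the catalytic and the modifier subunit of glutamate-cysteine ligase, which carries out the rate-limiting step of glutathione synthesis. GCLC (NCBI gene 2729, chromosome 6, 53497341 to 53616970, minus strand) was at 73.9, 70.2 and 73.5 CPM in PLK2, at 73.9, 71.2 and 76.0 CPM in PLK2(D223N) and at 63.1, 75.8 and 71.9 CPM in Vector libraries. All 3 groups overlapped, and Vector replicate 1 was the lowest of the 9. An annotated lincRNA of the same strand, AL033397.1, shares 529 exon bases with GCLC. For GCLC the log2 fold change was 0.05 (95% interval -0.09 to 0.19), 0.07 (-0.07 to 0.21) and -0.02 (-0.16 to 0.12) in PLK2 vs Vector, PLK2(D223N) vs Vector and PLK2 vs PLK2(D223N).

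GCLM (NCBI gene 2730, chromosome 1, 93885205 to 93909456, minus strand), whose promoter motif is shown above, had the smallest spread among libraries with a construct. It was at 60.8, 60.8 and 62.3 CPM in PLK2, at 59.2, 59.1 and 58.3 CPM in PLK2(D223N) and at 55.3, 58.8 and 57.6 CPM in Vector libraries. PLK2 libraries were above all others, by small steps. The fold change was 1.07 (95% interval 0.992 to 1.16, adjusted p = 0.347) in PLK2 vs Vector and 1.04 (0.964 to 1.12, adjusted p = 0.942) in PLK2 vs PLK2(D223N), and with trends of GC content and length removed the first of these lay below 0 on the log2 scale, at -0.04.

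GSR (NCBI gene 2936, chromosome 8, 30678061 to 30727999, minus strand) encodes glutathione reductase, which turns oxidised glutathione back with NADPH. It was at 92.6, 93.8 and 96.9 CPM in PLK2, at 95.7, 93.6 and 97.7 CPM in PLK2(D223N) and at 112, 99.1 and 100.3 CPM in Vector libraries. All 6 libraries with a construct were below all 3 Vector libraries, with Vector replicate 1 the highest of the 9. For GSR the log2 fold change was -0.14 (SE 0.06, adjusted p = 0.268) in PLK2 vs Vector, -0.12 (SE 0.06, adjusted p = 0.574) in PLK2(D223N) vs Vector and -0.02 (SE 0.06, adjusted p = 0.990) in PLK2 vs PLK2(D223N). Without Vector replicate 1 the differences from Vector were -0.08 with PLK2 and -0.06 with PLK2(D223N), and no alternative called GSR.

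**Figure D3:**
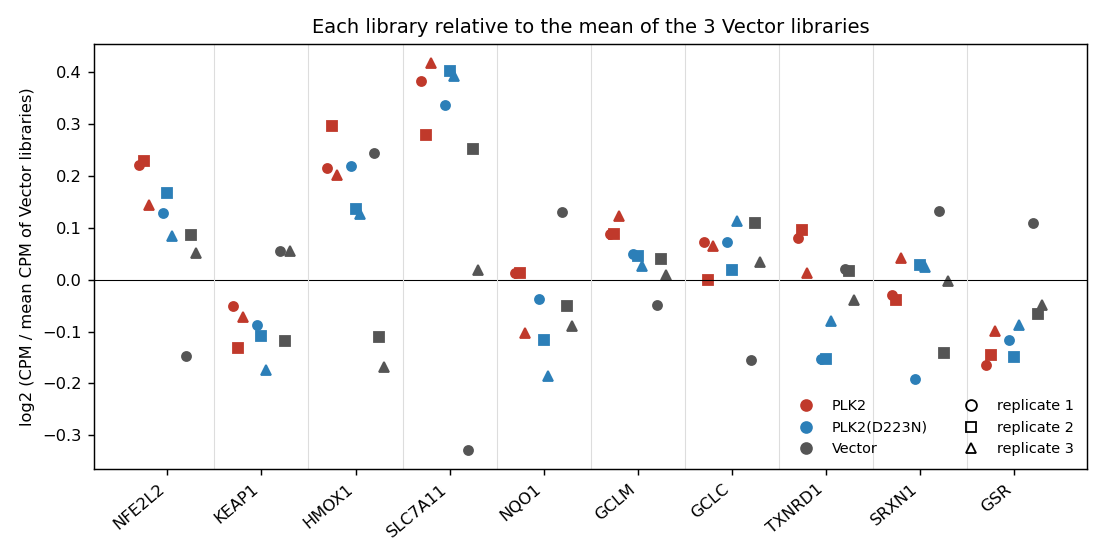
Each point is the level of a gene in 1 library as the log2 of its CPM over the mean CPM of the 3 Vector libraries, for all 10 genes. Vector replicate 1, the grey circle, is at the low end for NFE2L2, SLC7A11, GCLM and GCLC and at the high end for HMOX1, NQO1, SRXN1 and GSR, and for these 8 genes it is the Vector library farthest from the others.

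TXNRD1 (NCBI gene 7296, chromosome 12, 104215779 to 104350305, plus strand) reduces thioredoxin at the expense of NADPH. It was at 356, 360.1 and 340.2 CPM in PLK2, at 303, 303 and 319 CPM in PLK2(D223N) and at 342, 341 and 328 CPM in Vector libraries. PLK2(D223N) libraries were below all others, and PLK2 and Vector libraries overlapped. For TXNRD1 the log2 fold change was 0.19 (SE 0.05, 95% interval 0.09 to 0.30, adjusted p = 0.259) in PLK2 vs PLK2(D223N), -0.13 (SE 0.05, -0.23 to -0.02, adjusted p = 0.574) in PLK2(D223N) vs Vector and 0.06 (SE 0.05, -0.04 to 0.17, adjusted p = 0.510) in PLK2 vs Vector. Of the 10 genes it had the smallest p in any comparison, and the PLK2 vs PLK2(D223N) difference ranked 69 of all tested genes there.

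The TXNRD1 difference between the constructs was called under some alternatives. In a fit to the 6 PLK2 and PLK2(D223N) libraries alone it was again 0.19, with adjusted p = 1.67e-06, and 3.92% of all tested genes were called. Without Vector replicate 1 it was 0.19 with adjusted p = 9.17e-05 and 2.43% of all genes called. Without Vector replicate 2 it was 0.19 and not called, with 0.414% of all genes called. Adjusted p ran from 1.67e-06 to 0.998 over 18 alternatives, 3 of which called it, and its log2 fold change from 0.14 to 0.22. No Vector library enters this comparison, so leaving Vector libraries out hardly moves the log2 fold change. It mainly changes the shared spread, with an SE of 0.05 in the fit to 9 libraries and 0.03 in the fit to 6. The repeated 0.19 is therefore not a separate result. The constructs also differed in PLK2 RNA, so that the mutation and the level of the transgene cannot be told apart.

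The genes whose log2 CPM was most like that of TXNRD1 over the 9 libraries were HNRNPK, which encodes an RNA-binding protein, with a Pearson r of 0.950, DNAJC9, a J-domain histone chaperone, with 0.940, and MTHFD2, a mitochondrial enzyme of folate metabolism, with 0.938. They were picked as the highest of all tested genes, and the 9 points share the 3 groups and Vector replicate 1. Their mean CPM in PLK2, PLK2(D223N) and Vector libraries was 1396, 1329 and 1383 for HNRNPK, 122, 112 and 119 for DNAJC9, and 277, 264 and 274 for MTHFD2.

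SRXN1 (NCBI gene 140809, chromosome 20, 646615 to 653370, minus strand) encodes sulfiredoxin, which repairs overoxidised peroxiredoxins. Its level was 32.0, 31.8 and 33.6 CPM in PLK2, 28.6, 33.3 and 33.2 CPM in PLK2(D223N) and 35.8, 29.6 and 32.6 CPM in Vector libraries, and all 3 groups overlapped. The log2 fold change was -0.01 (95% interval -0.18 to 0.16) in PLK2 vs Vector, -0.05 (-0.22 to 0.12) in PLK2(D223N) vs Vector and 0.03 (-0.14 to 0.20) in PLK2 vs PLK2(D223N). Another annotated gene of the same strand, AL121758.1, shares 2292 exon bases with SRXN1. Like the other overlapping transcripts named here, AL121758.1 has no row in the deposited table. How reads of the shared bases were handled was not stated, so the SRXN1 counts are uncertain.

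HMOX1 (NCBI gene 3162, chromosome 22, 35380361 to 35394214, plus strand) encodes haem oxygenase 1, which breaks down haem and is held off by the repressor BACH1 as well as driven by NRF2. It was at 64.6, 68.3 and 64.0 CPM in PLK2, at 64.7, 61.1 and 60.7 CPM in PLK2(D223N) and at 65.9, 51.5 and 49.5 CPM in Vector libraries. Vector replicate 1 lay within the range of the PLK2 libraries, and the other 2 Vector libraries lay below all 6 libraries with a construct. For HMOX1 the log2 fold change was 0.24 (SE 0.09, adjusted p = 0.213) in PLK2 vs Vector, 0.16 (SE 0.09, adjusted p = 0.582) in PLK2(D223N) vs Vector and 0.08 (SE 0.09, adjusted p = 0.965) in PLK2 vs PLK2(D223N).

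Without Vector replicate 1, HMOX1 was called in both comparisons with Vector, at 0.38 in PLK2 (adjusted p = 4.82e-06) and 0.30 in PLK2(D223N) (adjusted p = 0.00221). In those fits 2.79% and 0.161% of all tested genes were called. Over 18 alternatives adjusted p ran from 4.82e-06 to 0.508 in PLK2 vs Vector and from 0.00221 to 0.833 in PLK2(D223N) vs Vector, and the log2 fold change from 0.16 to 0.38 and from 0.08 to 0.30. Without Vector replicate 3 the values were 0.16 and 0.08, and neither was called. With trends of GC content and length removed PLK2 vs Vector was called at 0.29 (adjusted p = 0.00381), where 379 of 12841 genes were called.

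NQO1 (NCBI gene 1728, chromosome 16, 69706996 to 69726951, minus strand) was at 11.7, 11.7 and 10.8 CPM in PLK2, at 11.3, 10.7 and 10.2 CPM in PLK2(D223N) and at 12.7, 11.2 and 10.9 CPM in Vector libraries. The groups overlapped, with Vector replicate 1 the highest of the 9. With 162 to 214 counts per Vector library it had the fewest counts of the 10, and its 95% intervals were -0.23 to 0.16 in PLK2 vs Vector, -0.31 to 0.07 in PLK2(D223N) vs Vector and -0.11 to 0.28 in PLK2 vs PLK2(D223N) on the log2 scale. An annotated antisense transcript, AC092115.2, shares 575 exon bases with it.

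**Figure D4:**
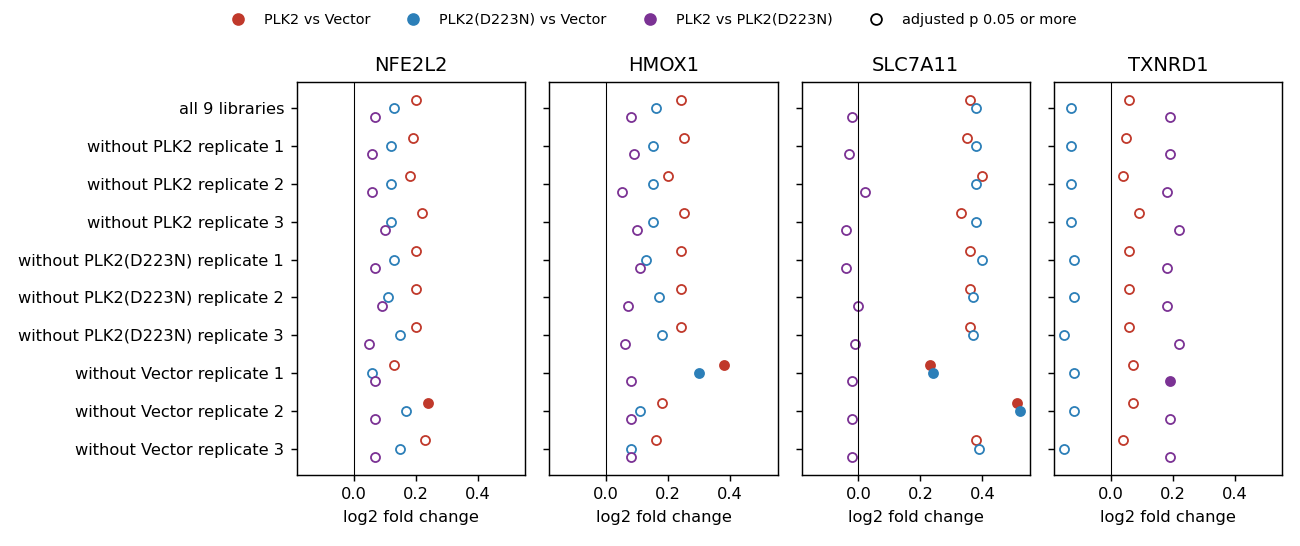
The log2 fold changes of NFE2L2, HMOX1, SLC7A11 and TXNRD1 are shown with all 9 libraries and with each library left out in turn, filled where the adjusted p was below 0.05. Leaving out Vector replicate 1 gave calls for HMOX1, SLC7A11 and TXNRD1, leaving out Vector replicate 2 for NFE2L2 and SLC7A11, and leaving out any other single library gave none for these 4 genes. In PLK2 vs Vector, leaving out Vector replicate 1 or 2 called 2.79% or 12.7% of all tested genes. In PLK2(D223N) vs Vector these shares were 0.161% or 2.66%, and in PLK2 vs PLK2(D223N) 2.43% or 0.414%. Leaving out a Vector library affects PLK2 vs PLK2(D223N) mainly through the shared spread.

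The spread within groups sets the size of difference these libraries can show. Over the 10 genes the median SD of log2 CPM was 0.043 in PLK2, 0.044 in PLK2(D223N) and 0.118 in Vector libraries, beside 0.063, 0.058 and 0.124 for all tested genes. Vector replicate 1 was the Vector library farthest from the others for 8 of the 10 genes, and for 60.1% of all tested genes.

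The wider antioxidant network was counted over 7 further lists with 112 genes, of which 98 were tested, 9 were too low to test and 5 were not analysed here. None of the 98 was called in any of the 3 comparisons. At an unadjusted p below 0.05 there were 15, 10 and 7 of the 98 in PLK2 vs Vector, PLK2(D223N) vs Vector and PLK2 vs PLK2(D223N), near the shares of all tested genes (16.4%, 8.53% and 6.04%). The median log2 fold changes of the 98 were -0.07, -0.06 and 0.02, beside -0.00, 0.01 and -0.00 for all tested genes. Against Vector, 30 of the 98 lay above 0 with PLK2 and 23 with PLK2(D223N), and both comparisons share the 3 Vector libraries. Between PLK2 and PLK2(D223N), 56 did. Of all 12924 tested genes, 6322, 6808 and 6190 lay above 0 in PLK2 vs Vector, PLK2(D223N) vs Vector and PLK2 vs PLK2(D223N). Those counts are also the ones to set beside each list below. Without Vector replicate 2, 12.7% of all genes were called in PLK2 vs Vector, 1205 higher and 451 lower. Of the wider genes 13 were called there, 4 higher (MAFG, BACH1, SOD2 and GGT1) and 9 lower, among them GPX3, MGST3, PRDX2, IDH2 and CBR1. Without that library GLRX5 and PRDX4 were called lower in PLK2(D223N) vs Vector, where 2.66% of all genes were called, 323 higher and 24 lower. Without Vector replicate 1, 4 wider genes were called in PLK2 vs Vector, all higher (MAFG, BACH1, SQSTM1 and SLC3A2). There 2.79% of all genes were called, 310 higher and 53 lower. For SLC3A2 that library was at 260.1 CPM, above all PLK2 libraries. Its value was 0.07 with all libraries (adjusted p = 0.594), 0.17 without Vector replicate 1 and 0.03 without Vector replicate 2 (adjusted p = 0.825).

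Among 15 tested regulators of NRF2 the smallest p values in PLK2 vs Vector were those of MAFG, BACH1 and SQSTM1. MAFG encodes a small MAF protein that pairs with NRF2 on DNA. It was at 42.3, 39.2 and 41.8 CPM in PLK2, at 30.7, 35.1 and 33.4 CPM in PLK2(D223N) and at 36.1, 30.8 and 33.9 CPM in Vector libraries. All PLK2 libraries were above all others. The log2 fold change was 0.29 (SE 0.07, adjusted p = 0.0923) in PLK2 vs Vector and 0.31 (SE 0.07, adjusted p = 0.151) in PLK2 vs PLK2(D223N). Against Vector it was called in 3 of 18 alternatives, at 0.34 without Vector replicate 1 (adjusted p = 0.000843), at 0.23 without Vector replicate 2 (adjusted p = 0.0426) and at 0.34 with trends of GC content and length removed (adjusted p = 0.00113), the highest adjusted p being 0.323. Without Vector replicate 1 or 2, 2.79% or 12.7% of all genes were called, and with trends removed 379 of 12841 were.

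SQSTM1, the autophagy receptor p62, which can pull KEAP1 away from NRF2, was at 202, 202 and 198 CPM in PLK2, at 176, 166 and 171 CPM in PLK2(D223N) and at 197, 159 and 172 CPM in Vector libraries. PLK2 libraries were above all others, with Vector replicate 1 close to the lowest of them. The log2 fold change was 0.19 (SE 0.07, adjusted p = 0.200) in PLK2 vs Vector and 0.23 (SE 0.07, adjusted p = 0.395) in PLK2 vs PLK2(D223N). Against Vector it was called at 0.28 without Vector replicate 1 (adjusted p = 5.60e-06) and at 0.24 with trends removed (adjusted p = 0.000666), and was 0.12 and not called without Vector replicate 2, in a range of 5.60e-06 to 0.482. BACH1, the repressor that competes with NRF2, was at 68.9, 74.2 and 74.5 CPM in PLK2, at 63.2, 62.4 and 66.4 CPM in PLK2(D223N) and at 50.7, 64.2 and 64.7 CPM in Vector libraries, at 0.28 on the log2 scale (SE 0.08, adjusted p = 0.129) in PLK2 vs Vector. It was called there without Vector replicate 1, at 0.17 (adjusted p = 0.0492), and without Vector replicate 2, at 0.33 (adjusted p = 0.0113), in a range of 0.0113 to 0.432. For SQSTM1 and BACH1 the shares of all genes called in these fits are those given for MAFG. MAFF, another small MAF, was at 2.68 ± 0.75 CPM in PLK2 and 1.87 ± 0.18 CPM in PLK2(D223N) libraries (SD, n = 3 each), which is 0.52 on the log2 scale (SE 0.21, adjusted p = 0.771). Its libraries overlapped, at 1.86 to 3.32 CPM in PLK2 and 1.68 to 2.03 CPM in PLK2(D223N). In PLK2(D223N) vs Vector the smallest p values of the list belonged to NFE2L1, a relative of NFE2L2 (-0.11, SE 0.06), BACH1 (0.10, SE 0.08) and the retinoid receptor RXRA (-0.07, SE 0.07), the lowest adjusted p being 0.582.

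In the fit to the 6 PLK2 and PLK2(D223N) libraries alone, 5 of the wider genes were called and all were higher in PLK2, where 3.92% of all tested genes were called, so the count says nothing particular about these lists. MAFG was at 0.31 (adjusted p = 8.52e-05), SQSTM1 at 0.23 (adjusted p = 4.08e-08), BACH1 at 0.18 (adjusted p = 0.00576), SLC3A2 at 0.17 (adjusted p = 0.000236) and SOD2 at 0.11 (adjusted p = 0.00665). The same 5 genes were called without Vector replicate 1, beside 2.43% of all genes, and without Vector replicate 2 only MAFG was (0.31, adjusted p = 0.0306), beside 0.414%. Their highest adjusted p over 18 alternatives was 0.665 for MAFG and 1.00 for each of the other 4, and SOD2 ran from -0.04 to 0.12. The fits with fewer or no Vector libraries keep the same PLK2 and PLK2(D223N) libraries. Log2 fold changes between the constructs hardly move among those fits, which differ mainly in the spread, so the shared calls are not separate results. SLC3A2 encodes the heavy chain that partners xCT in the cystine exchanger, and was at 242 ± 11 CPM in PLK2 and 215 ± 8.5 CPM in PLK2(D223N) libraries. SOD2, the mitochondrial superoxide dismutase, was at 596 ± 8.1 and 552 ± 4.9 CPM there (SD, n = 3 each).

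Of 28 tested genes of glutathione synthesis, transport and use, 10 lay above 0 in PLK2 vs Vector and 6 in PLK2(D223N) vs Vector. GGT1, which starts the breakdown of extracellular glutathione, was at 2.01 ± 0.31 CPM in PLK2 and 1.16 ± 0.026 CPM in Vector libraries (SD, n = 3 each), which is 0.79 on the log2 scale (SE 0.21, adjusted p = 0.117). It has close relatives in the genome and few counts, and is uncertain for both reasons. The glutathione peroxidase GPX3 was at -0.26 (SE 0.09, adjusted p = 0.184) and the microsomal transferase MGST3 at -0.24 (SE 0.09, adjusted p = 0.235) in the same comparison. In PLK2(D223N) vs Vector the mitochondrial glutaredoxin GLRX5 was at -0.24 (SE 0.07), GGT7 at 0.26 (SE 0.10) and CHAC2, which degrades glutathione inside cells, at 0.14 (SE 0.06), all with adjusted p = 0.574.

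In the thioredoxin and peroxiredoxin system 5 of 18 genes lay above 0 in PLK2 vs Vector and 3 in PLK2(D223N) vs Vector, and the peroxiredoxins PRDX2 (-0.16, SE 0.07, adjusted p = 0.258) and PRDX4 (-0.12, SE 0.06, adjusted p = 0.322) had the smallest p with PLK2. MSRA, a methionine sulfoxide reductase, was at 1.44 ± 0.13 CPM in PLK2(D223N) and 2.25 ± 0.10 CPM in Vector libraries (SD, n = 3 each), which is -0.64 on the log2 scale (SE 0.19, adjusted p = 0.574). Of 8 enzymes of NADPH supply, 2 lay above 0 with PLK2 and 1 with PLK2(D223N) against Vector. The lowest p value with PLK2 was that of the mitochondrial isocitrate dehydrogenase IDH2 (-0.18, SE 0.07, adjusted p = 0.236).

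Of 16 tested drug-metabolising and transporter targets of NRF2, 3 lay above 0 in PLK2 vs Vector and 4 in PLK2(D223N) vs Vector. The carbonyl reductase CBR1 was at -0.20 (SE 0.07, adjusted p = 0.185) and the efflux pump ABCC1 at -0.12 (SE 0.06, adjusted p = 0.307) with PLK2. Of 9 genes of haem and iron handling, 1 lay above 0 in PLK2 vs Vector, where the iron exporter SLC40A1 was at -0.31 (SE 0.13, adjusted p = 0.274). The ferritin light chain FTL was at -0.08 (SE 0.06, adjusted p = 0.497) with PLK2 and -0.13 (SE 0.06, adjusted p = 0.574) with PLK2(D223N) against Vector, with the caution that ferritin genes have many processed copies. The 4 tested superoxide dismutase and catalase genes lay between -0.07 and 0.16 in PLK2 vs Vector, where SOD2 was the highest (0.16, SE 0.06, adjusted p = 0.222) and SOD1 the lowest. SOD2 was 0.09 and not called without Vector replicate 1. It was called at 0.21 without Vector replicate 2 (adjusted p = 0.0227), where 12.7% of all genes were called. Over 18 alternatives it ran from 0.01 to 0.21, with adjusted p from 0.0227 to 0.951.

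**Figure D5:**
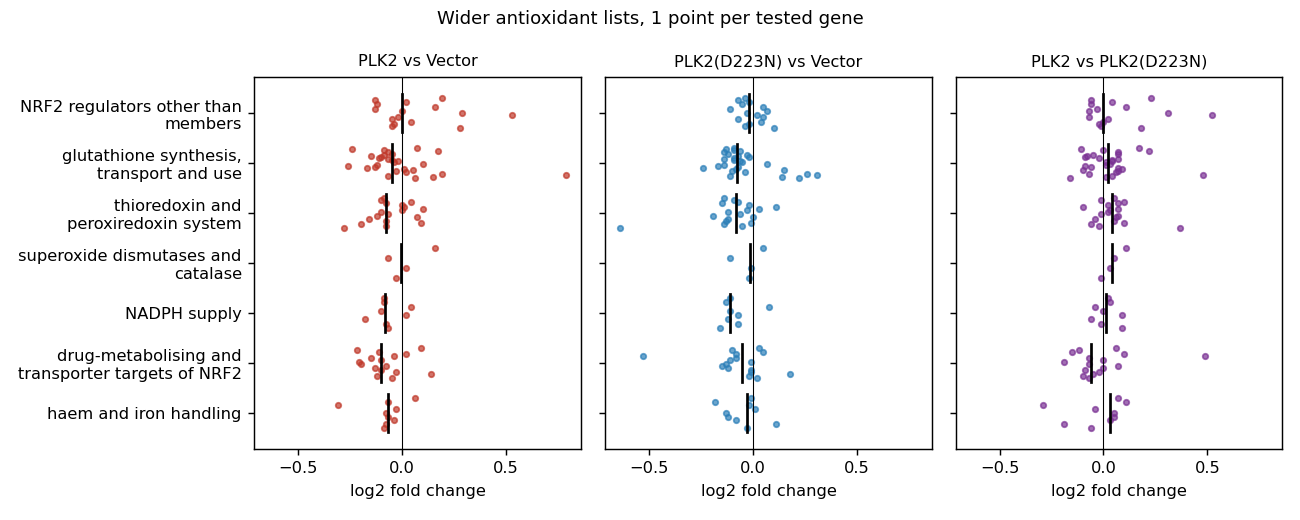
Each point is the log2 fold change of 1 tested gene of the 7 wider lists in PLK2 vs Vector, PLK2(D223N) vs Vector and PLK2 vs PLK2(D223N), and each bar the median of a list. The medians lie between -0.11 and 0.04, and none of the 98 genes was called in any of the 3 comparisons.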

How the data were processed

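RNA was sequenced from 9 HEK293T libraries, 3 in each of 3 groups taken from the sample labels, after oligo(dT) selection of mRNA, per the labels' protocols. The submitters' processing notes name RSEM 1.3.1, Bowtie2, DESeq2 1.4.5 and the build GRCh38.p13, without the role of each tool, and no source used here states the annotation or strand setting. The deposited table gives the authors' estimated counts per gene, which are not all whole numbers, and the authors' TPM. It has 18 further per-library columns that were not used. The series' design calls replicates biological without saying that they were separate cultures, so p-values measure the spread between these libraries, which may be technical.

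Estimated counts were rounded, filtered by filterByExpr and scaled by TMM, and all 9 libraries were fitted in edgeR 4.0.16 (glmQLFit and glmQLFTest, robust, group as the only term, R 4.3.3). P-values are two-sided, adjusted by Benjamini-Hochberg over 12924 genes and called below 0.05. TPM served for levels between genes, and marker sums are CPM without TMM. The test was checked on simulated data with the same spread in each group. That check does not cover the wider spread of the Vector libraries. Alternatives were DESeq2 1.42.0 size factors and Wald test, 2 other filters, a replicate term, only the 6 libraries compared, PLK2 removed before scaling, loess trends of GC content and length removed (span 0.3, known for 12841 genes), limma 3.58.1 on log2(TPM + 1) above a mean of 1 TPM, and each library left out. The counts of wider genes under alternatives were added after seeing the data.

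The 10 genes and all lists were chosen with earlier results of these data known. Besides the 10 and PLK2, the genes named are at most 3 per wider list and comparison with the smallest p, the 3 genes most correlated with the member of smallest p over 9 libraries (log2 CPM, prior count 2), and, chosen after their values were seen, wider genes called under an alternative. One Vector title has transposed letters, and its column was matched by number.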

Additional observations from a re-analysis of the deposited data

How the results depend on the processing

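None of the 10 genes was called in the 3 comparisons with the 9 libraries, and over 18 alternatives the counts moved as follows. In PLK2 vs Vector the 66 calls among all genes became 143 with the DESeq2 Wald test, 136 with no filter, 23 with the 6 libraries compared, 379 with GC content and length trends removed and 19 with limma on TPM. Members called there were 1 with the Wald test (SLC7A11) and 2 with trends removed (HMOX1 and SLC7A11), where 4 wider genes were also called and the split of all calls was 251 higher and 128 lower, against 62 and 4. In PLK2(D223N) vs Vector the 3 calls became 9 with the Wald test, 5 with no filter and 8 with trends removed. In PLK2 vs PLK2(D223N) the 21 calls, 20 higher and 1 lower, became 37 with the Wald test, 35 with no filter, 502 with the 6 libraries (374 higher, 128 lower), 92 with trends removed and 11 with limma. There TXNRD1 was the 1 member called with the 6 libraries and with trends removed, and 5 and 3 wider genes were called. With each library left out in turn, all genes called ran from 13 to 1656, from 2 to 347 and from 9 to 317 in PLK2 vs Vector, PLK2(D223N) vs Vector and PLK2 vs PLK2(D223N), members called from 0 to 2, from 0 to 2 and from 0 to 1, and wider genes called from 0 to 13, from 0 to 2 and from 0 to 5.

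Members that turned sign lay near 0. With trends removed, GCLM was -0.04 and SRXN1 0.03 in PLK2 vs Vector, and GCLM -0.07 in PLK2(D223N) vs Vector. With limma, SRXN1 was 0.01 in PLK2(D223N) vs Vector, and KEAP1 and SRXN1 were both -0.01 in PLK2 vs PLK2(D223N). In the limma fit the median over all tested genes was itself 0.05 in PLK2(D223N) vs Vector and -0.05 in PLK2 vs PLK2(D223N). With edgeR on the 9 libraries these medians were 0.01 and -0.00. With a library left out, PLK2 vs Vector ran from -0.08 to 0.04 for NQO1, from -0.02 to 0.10 for GCLC and from -0.08 to 0.06 for SRXN1, PLK2(D223N) vs Vector from -0.11 to 0.02 for SRXN1 and from -0.00 to 0.13 for GCLC, and PLK2 vs PLK2(D223N) from -0.04 to 0.02 for SLC7A11, from -0.05 to 0.00 for GCLC and from -0.04 to 0.07 for SRXN1. The cause was not tested in any of these.

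Same-numbered libraries did not deviate together (correlations -0.10 to 0.11), so the numbers were not taken as pairs. With the replicate number as a block 76, 4 and 20 genes were called in the 3 comparisons, and 0 of the 10 in each. Of the 10 genes NQO1 had the fewest counts, 162 to 214 per Vector library, and of the wider genes named GGT1, MSRA and MAFF had 220, 265 and 306 counts over all 9 libraries.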
